A study of Mus musculus with 8 samples.

Results

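The genes described here are the ligands, receptors, antagonists, inhibitors and common target genes of the bone morphogenetic protein (BMP) and transforming growth factor beta (TGF-beta) pathways. They were chosen by name, 37 genes of the 34837 gene names on the array. Earlier results of these data were known when they were chosen. The group held 14 ligands, 9 receptors, 4 secreted antagonists, 3 membrane or intracellular inhibitors and 7 target genes. Of these, 34 had a probe well above background on at least 1 array and were tested. Gdf10, Inhba and Bambi were above background on no array and were not. A total of 23 members were above background on all 8 arrays, and 11 passed on fewer arrays, so that a bright group alone could bring such a gene into the tests.

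BMP and TGF-beta ligands are secreted dimers that bring type II and type I receptor kinases together, and the type I receptor then phosphorylates Smad transcription factors. BMP receptors act mainly through Smad1, Smad5 and Smad9, and activin and TGF-beta receptors mainly through Smad2 and Smad3. Noggin, chordin, gremlin and follistatin bind ligands outside the cell, and Smad6, Smad7 and the Id genes are classical immediate targets, of which the first pair feeds back on the receptors. In the early kidney, BMP4 from the mesenchyme around the duct is known to restrain budding, gremlin 1 is known to relieve that restraint where the ureteric bud forms, and BMP7 is made by the ureteric epithelium.

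The cells came from ICR mouse embryos and were isolated by flow cytometry, and each sample was hybridised to 1 array. Cells carrying a Hoxb7-GFP transgene, which marks the nephric (Wolffian) duct and its outgrowth, the ureteric bud, gave 6 arrays: 1 at E8.75 (E for embryonic day), a rostral and a caudal part at E9.5, a rostral and a caudal part at E10.5, and the bud at E11.5. Cells carrying a Wt1-GFP reporter, which marks intermediate mesoderm with the precursors of nephrons, gave a rostral and a caudal array at E9.5. The titles state selection against Flk1 (Kdr), a receptor of endothelial cells, for the Hoxb7-GFP cells of E9.5 and later, but not for the E8.75 cells or the Wt1-GFP cells, so that this selection cannot be told apart from stage at the first step or from the reporter. Neither the number of animals behind an array nor their separation between arrays is given in the labels, and where a group had 2 arrays they were its rostral and caudal parts.

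The share of probes well above background was 60.6% to 69.2% per array, and arrays correlated at r = 0.923 to 0.964 over all probes. A level is the log2 of the processed signal minus the log2 of the 75th percentile of that array, so that 0 is the signal of a bright but ordinary probe. Levels are read for the same probe across arrays, never between genes. The dimmest level called well above background ran from -5.26 at E8.75 to -3.89 in the caudal E10.5 duct and the rostral Wt1-GFP cells. A level called above background on one array may therefore not be on another. Wt1 itself stood at 4.14 and 4.09 in the Wt1-GFP cells and between -6.83 and -0.15 on the duct arrays. The 8 markers of the nephric duct had log2 summed levels of 5.97 to 6.68 on the 6 duct arrays and of 3.30 and 2.43 in the Wt1-GFP cells, where Ret, Wnt9b and Cdh1 were not above background. On the E8.75 array Wnt9b and Cdh1 were not above background either. The model had 5 group terms and a term for rostral or caudal position and left 2 residual degrees of freedom, so each p-value measures how the rostral to caudal difference varied among 3 pairs of arrays.

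**Figure D1:**
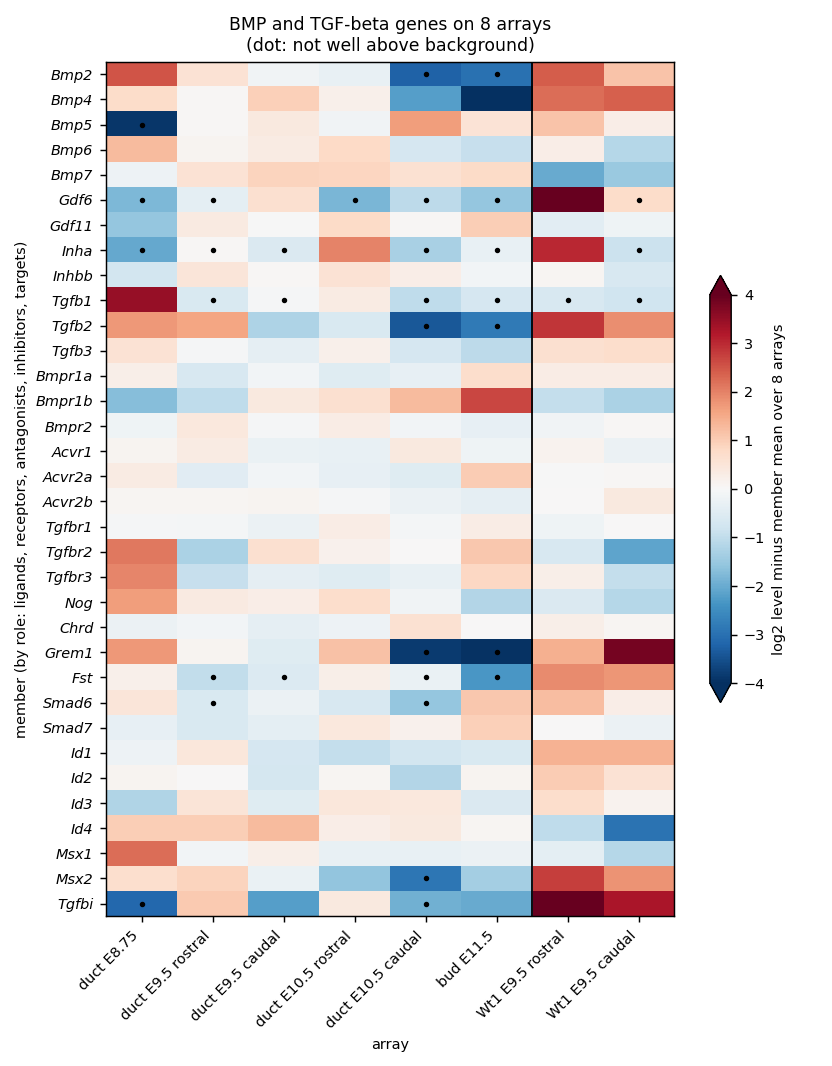
Levels of the 34 tested members (rows, by role) on the 8 arrays (columns), each as the log2 level minus that member's mean over the 8 arrays; red is above and blue below the mean, and a black dot marks an array on which the probe was not well above background. Bmp2, Tgfb2 and Grem1 carry dots in the caudal E10.5 duct and the E11.5 bud, and Tgfbr1, Acvr1, Acvr2b and Bmpr2 stay pale throughout.

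The first comparison set the duct cells against the Wt1-GFP cells at E9.5, each with a rostral and a caudal part. Among the members, Bmp7 and Id4 had the largest positive differences (duct over Wt1-GFP), and Tgfbi, Gdf6, Grem1, Fst, Tgfb2 and Msx2 the largest negative ones. In the test of limma with Benjamini-Hochberg adjustment over 29282 genes, no member reached an adjusted p of 0.05, and 0 genes did (0% of all tested; lowest adjusted p 0.17 over all genes and 0.19 among members). At an unadjusted p under 0.05 stood 9 of the 34 members, against 13.6% of all genes tested. Of these, 3 members were higher in the duct (6.37% of all genes) and 6 lower (7.22% of all genes). A difference of at least 2-fold was fitted for 4 members upward (9.43% of all genes) and 12 members downward (7.02% of all genes). The median difference was -0.39 over the members and -0.06 over all genes, on the log2 scale.

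**Figure D2:**
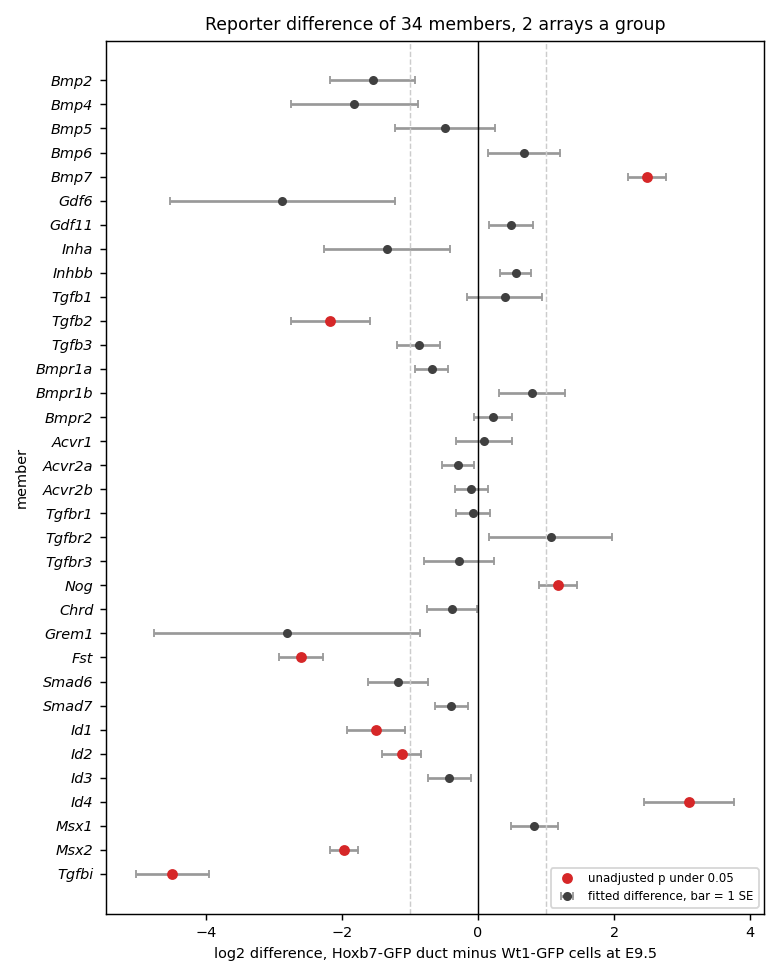
Fitted log2 difference of the duct minus the Wt1-GFP cells at E9.5 for the 34 tested members (rows, by role), 2 arrays a group, with bars of 1 SE; red points have an unadjusted p under 0.05 and dashed lines mark 2-fold. Most receptors lie within the dashed lines, while ligands, antagonists and targets reach from -4.49 for Tgfbi to 3.1 for Id4.

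Among the ligands, Bmp7 had the lowest p. Its level was 0.18 in the rostral and 0.50 in the caudal duct at E9.5, against -2.39 and -1.88 in the rostral and caudal Wt1-GFP cells. The groups did not overlap, and Bmp7 was also above both Wt1-GFP arrays on the other 4 duct arrays, where it stood between -0.58 and 0.46. The fitted difference was 2.48 ± 0.28 (SE), a 5.57-fold difference (limma adjusted p = 0.20, unadjusted p = 0.0013). The probe lies at chr2:172695203-172695262 on the minus strand of mm9.

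Bmp4, the mesenchymal BMP of the kidney field, was bright in both cell types. It stood at 2.12 and 3.02 in the rostral and caudal duct and at 4.30 and 4.47 in the Wt1-GFP cells, a difference of -1.82 ± 0.93 (SE; limma adjusted p = 0.45). Every duct array, from 3.02 in the caudal E9.5 duct to -2.24 in the bud, was below both Wt1-GFP arrays. Tgfb2, a TGF-beta isoform, stood at -0.55 and -3.37 in the duct and at 0.71 and -0.28 in the Wt1-GFP cells (difference -2.17 ± 0.58 SE; limma adjusted p = 0.33). Its rostral duct array lay close to the caudal Wt1-GFP array, and its caudal duct array far below. Bmp2, a close relative of Bmp4, stood at -1.54 and -2.26 in the duct against 0.30 and -0.99 (difference -1.55 ± 0.63 SE; limma adjusted p = 0.40).

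Gdf6, a BMP-class growth factor, was bright on a single array. It stood at 0.45 in the rostral Wt1-GFP cells and between -6.66 and -4.09 on the other 7 arrays, of which the caudal E9.5 duct alone was above background. The fitted difference of -2.88 ± 1.65 (SE; limma adjusted p = 0.49) became -0.16 without the rostral Wt1-GFP array. Inha, the alpha subunit of inhibin, had the same kind of pattern, with -1.79 in the rostral Wt1-GFP cells, -2.82 in the rostral E10.5 duct and -4.77 or less on the other 6 arrays, which were not above background. At E9.5 only 1 of the 4 arrays thus measured it, and the fitted difference of -1.34 (limma adjusted p = 0.55) became 0.15 without the rostral E9.5 duct array. Tgfb1 was not above background on any of the 4 arrays of E9.5. The other 5 tested ligands, Bmp5, Bmp6, Gdf11, Inhbb and Tgfb3, had differences below 2-fold, from -0.87 for Tgfb3 to 0.67 for Bmp6.

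The receptors had small differences. None of the 9 had an unadjusted p under 0.05, their fitted differences ran from -0.68 for Bmpr1a to 1.07 for Tgfbr2, and their median was -0.08. The type I receptor Tgfbr1 stood between 3.36 and 3.91 on all 8 arrays, the activin type II receptor Acvr2b between 3.47 and 4.22, and the BMP type II receptor Bmpr2 between -0.09 and 0.67. Tgfbr2, the TGF-beta type II receptor, was the only receptor past 2-fold, and its sign depended on single arrays. It stood at -1.98 and -0.08 in the rostral and caudal duct against -1.36 and -2.83, and the difference was -0.30 without the caudal duct array and -0.10 without the caudal Wt1-GFP array. Bmpr1b, a BMP type I receptor, was measured by 2 probes, whose differences were 0.80 for the brighter and 2.76 for the dimmer.

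The secreted antagonists went in both directions. Nog, which encodes the BMP antagonist noggin, stood at -1.11 and -1.22 in the duct and at -2.05 and -2.62 in the Wt1-GFP cells, a difference of 1.17 ± 0.28 (SE; limma adjusted p = 0.31, unadjusted p = 0.016). Both duct arrays were above both Wt1-GFP arrays, though the E11.5 bud, at -2.65, was below them. Fst, which encodes the activin-binding follistatin, stood at -2.34 and -2.47 in the Wt1-GFP cells and at -5.23 and -4.79 in the duct, where it was not above background, so it was at least 5.06-fold lower in the duct (limma adjusted p = 0.21). Grem1, the BMP antagonist gremlin 1, stood at -1.65 and -2.25 in the duct against -0.35 and 2.06. Its 2 Wt1-GFP arrays were themselves far apart, and the difference of -2.80 ± 1.95 (SE; limma adjusted p = 0.55) ran from -5.41 to -0.20 when single arrays were left out, with -0.20 without the caudal Wt1-GFP array. Chrd, which encodes chordin, was between -2.42 and -1.83 on the 4 arrays. Of the intracellular inhibitors, Smad6 stood at -4.49, not above background, and -4.12 in the duct against -2.65 and -3.60 (difference -1.18 ± 0.44 SE; limma adjusted p = 0.38), and Smad7 had a difference of -0.39.

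Of the 7 target genes, 5 had an unadjusted p under 0.05 (13.6% of all genes), 1 of them higher in the duct (6.37%) and 4 lower (7.22%). Tgfbi, a secreted matrix protein induced by TGF-beta, had the largest difference of the 34 members. It stood at -1.07 in the rostral and -4.32 in the caudal duct at E9.5, and at 2.46 and 1.13 in the Wt1-GFP cells. All 6 duct arrays, at -5.27 to -1.07, were below both Wt1-GFP arrays. The fitted difference was -4.49 ± 0.54 (SE), or 22.5-fold (limma adjusted p = 0.21, unadjusted p = 0.0016). Its probe lies at chr13:56740460-56740519 on the plus strand of mm9.

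Msx2, a homeobox gene induced by BMP, stood at 0.19 and -0.96 in the duct and at 2.07 and 1.09 in the Wt1-GFP cells (difference -1.97 ± 0.21 SE; limma adjusted p = 0.19). No duct array reached the lower Wt1-GFP array. Its relative Msx1 had the opposite sign, at -1.69 and -1.36 in the duct against -1.98 and -2.73 (difference 0.83 ± 0.35 SE; limma adjusted p = 0.40). At E9.5 the groups did not overlap for 22 members (48% of all genes), of which both duct arrays were above both Wt1-GFP arrays for 6 (19.8% of all genes) and below them for 16 (28.3%). The 6 include Tgfb1, which was not above background on any of the 4 arrays. When all 6 duct arrays were required, a rule added after the values were seen, 3 members (Bmp7, Id4 and Msx1) were above and 9 (Bmp4, Fst, Gdf6, Id1, Id2, Msx2, Tgfb2, Tgfb3 and Tgfbi) below both Wt1-GFP arrays, against 5.96% and 8.79% of all genes (12 members in all, against 14.7%).

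The Id genes encode inhibitors of basic helix-loop-helix transcription factors and are much used as BMP readouts, and the 4 members of the family did not share a sign. Id1 stood at 0.35 and -0.78 in the duct and at 1.28 and 1.29 in the Wt1-GFP cells (difference -1.50 ± 0.42 SE; limma adjusted p = 0.33). Id2 stood at 0.64 and -0.09 against 1.62 and 1.18 (difference -1.12 ± 0.29 SE; limma adjusted p = 0.32). For both, every duct array was below both Wt1-GFP arrays. Id3 was bright everywhere, at 3.85 and 2.85 against 4.05 and 3.49, with overlapping groups. Id4 stood at 0.44 and 0.73 in the duct against -1.56 and -3.47, a difference of 3.1 ± 0.67 (SE), 8.58-fold (limma adjusted p = 0.29). All 6 duct arrays, at -0.44 to 0.73, were above both Wt1-GFP arrays for Id4.

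The upstream sequences of 6 of these genes are given to set the letters of the BMP and Smad response elements beside the levels: 3 Id genes whose reporter differences did not share a sign, and the targets Msx2 and Tgfbi and the antagonist Grem1. The 6 were chosen after their values were seen, and Bmp7, Fst and Gdf6 are not shown. The sequences are the 250 bases before the gene start, from RefSeq on GRCm38.p6, and capitals mark GGCGCC, the core of a BMP response element, and GTCT or its reverse complement AGAC, the short Smad element. Id2 lies at chr12:25096093-25096342 on the minus strand, Id3 at chr4:136143572-136143821 on the plus strand, and Id4 at chr13:48260866-48261115 on the plus strand. Msx2 lies at chr13:53472781-53473030 on the minus strand, Tgfbi at chr13:56609336-56609585 on the plus strand, and Grem1 at chr2:113758649-113758898 on the minus strand.
Id2: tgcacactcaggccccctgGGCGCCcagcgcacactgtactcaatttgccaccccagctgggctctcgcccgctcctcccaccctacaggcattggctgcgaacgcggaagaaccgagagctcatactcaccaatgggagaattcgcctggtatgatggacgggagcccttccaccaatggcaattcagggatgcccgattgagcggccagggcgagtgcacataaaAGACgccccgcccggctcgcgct
Id3: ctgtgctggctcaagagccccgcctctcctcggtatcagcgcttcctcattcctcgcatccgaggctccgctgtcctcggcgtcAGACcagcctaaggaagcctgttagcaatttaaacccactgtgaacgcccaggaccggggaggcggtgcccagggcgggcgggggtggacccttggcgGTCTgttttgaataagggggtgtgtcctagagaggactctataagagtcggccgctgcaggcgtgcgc
Id4: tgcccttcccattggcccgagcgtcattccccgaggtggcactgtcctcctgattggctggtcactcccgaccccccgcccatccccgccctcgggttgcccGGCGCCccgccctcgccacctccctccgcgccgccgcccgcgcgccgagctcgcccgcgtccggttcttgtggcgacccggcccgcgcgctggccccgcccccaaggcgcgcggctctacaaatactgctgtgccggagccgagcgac
Msx2: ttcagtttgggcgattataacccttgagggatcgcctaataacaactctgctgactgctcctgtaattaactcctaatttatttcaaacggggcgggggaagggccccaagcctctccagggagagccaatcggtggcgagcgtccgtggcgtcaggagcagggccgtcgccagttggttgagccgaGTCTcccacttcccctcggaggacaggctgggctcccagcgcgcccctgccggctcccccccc
Tgfbi: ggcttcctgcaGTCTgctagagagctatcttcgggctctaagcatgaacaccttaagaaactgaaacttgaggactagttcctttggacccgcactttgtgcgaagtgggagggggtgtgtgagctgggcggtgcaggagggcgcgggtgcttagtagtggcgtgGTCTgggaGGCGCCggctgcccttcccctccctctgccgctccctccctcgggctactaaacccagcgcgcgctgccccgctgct
Grem1: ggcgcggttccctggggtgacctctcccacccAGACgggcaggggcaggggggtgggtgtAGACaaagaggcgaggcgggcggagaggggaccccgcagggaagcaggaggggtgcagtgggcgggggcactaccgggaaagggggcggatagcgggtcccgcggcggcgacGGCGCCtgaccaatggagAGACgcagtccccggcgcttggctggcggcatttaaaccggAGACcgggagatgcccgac

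GGCGCC was present in 4 of these 6 windows, with its first base 231 bases before the start of Id2, 148 bases before that of Id4, 77 bases before that of Tgfbi and 78 bases before that of Grem1. Id2 and Id4, whose reporter differences had opposite signs, thus both hold it, and Id3 and Msx2 do not. The table held 30 windows of 27 members. GGCGCC, searched on both strands, was in 8 of the 30 windows (26.7%) and in 9.59% of all 32851 windows, and GGCGNC, which includes it, in 22 of 30 (73.3%) and 30.7% of all. GTCT was in 24 of 30 windows (80.0%) and in 82.9% of all, and the longer palindrome GTCTAGAC, which contains it, in 0 of 30 and 0.167% of all. The median share of G and C was 65.4% in the member windows and 52.4% over all windows, and its part in the count of GGCGCC was not tested. These are matches of letters, not binding sites.

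Marker sums of several other cell types moved with the reporter comparison, those of stroma, coelomic epithelium, somite and lateral plate toward the Wt1-GFP cells. The 5 markers of kidney stroma (Foxd1, Pdgfra, Col3a1, Tcf21 and Meox1) were all above background on the 4 arrays of E9.5, and their log2 summed level was 2.52 and 1.42 in the duct and 5.72 and 5.24 in the Wt1-GFP cells. For the 6 markers of coelomic epithelium, which include Wt1, it was 0.17 and -0.97 against 4.54 and 4.25, with Upk3b, Lrrn4, Msln and Bnc1 not above background in the duct, and for the 6 somite markers 1.11 and 1.03 against 3.80 and 3.54. The somite sum rested mainly on Meox1, also in the stroma list, at -0.02 and 0.40 against 3.51 and 3.36. Tbx18 and Uncx were also higher in the Wt1-GFP cells. Pax1 and Pax3 were higher in the duct, and Myf5 was above background on no array. The 6 lateral plate and limb markers on the array summed to 0.25 and -0.13 against 1.45 and 2.53. The 6 nephrogenic mesoderm markers summed to 9.48 and 9.35 against 9.61 and 9.51. Eya1 set that sum, at 9.47 and 9.34 against 9.56 and 9.41. Osr1, Six2 and Wt1 of that list were higher in the Wt1-GFP cells, and Sall1 and Hoxa11 overlapped between the groups. The 5 surface ectoderm markers summed to 6.55 and 6.43 against 6.45 and 6.44, a sum set by Trp63. Other lists were higher in the duct. The 6 endothelial markers summed to 0.60 and 1.22 in the duct against -1.04 and -2.01, with Cdh5, Icam2 and Tie1 not above background in either Wt1-GFP array. The 6 neural tube markers summed to 6.57 and 3.36 against 2.63 and 1.52, with Pax6 not above background on any of the 4. That sum rested mainly on Tubb3, which was higher on both duct arrays than on both Wt1-GFP arrays. Olig2 was slightly higher in the duct, while Sox1, Elavl3 and Neurog2 overlapped between the groups. The 5 neural crest markers summed to 2.70 and 2.92 against 1.01 and 0.99, with Foxd3 not above background on any of the 4. The neural crest sum in the duct rested mainly on Tcfap2a, at 2.14 and 2.49 against -6.18 and -4.02, while Sox10 and Ets1 overlapped between the groups. The part of these cell types in the levels of Tgfbi, Msx2, Bmp4, Grem1, Fst, Bmp7, Id4, Nog and the other members was not tested. In RNA from sorted pools, fewer cells of a type and less RNA per cell cannot be told apart. Both duct arrays of E9.5 lay in the first row of the slide and both Wt1-GFP arrays in the second, so that no row held both groups. With a block for slide row the difference was -4.51 for Tgfbi, 1.83 for Bmp7, -2.20 for Msx2, 4.03 for Id4 and 0.65 for Nog, and no gene passed. Only the E10.5 duct pair lay across both rows, so the row term came from that pair set against the other pairs. With an intensity trend in the variance prior 692 genes passed in limma, among them Bmp7 (adjusted p = 0.031), Msx2 (0.035) and Tgfbi (0.031), and with normexp background correction 183 genes passed, among them Bmp7 (adjusted p = 0.043) and Tgfbi (0.029).

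**Figure D3:**
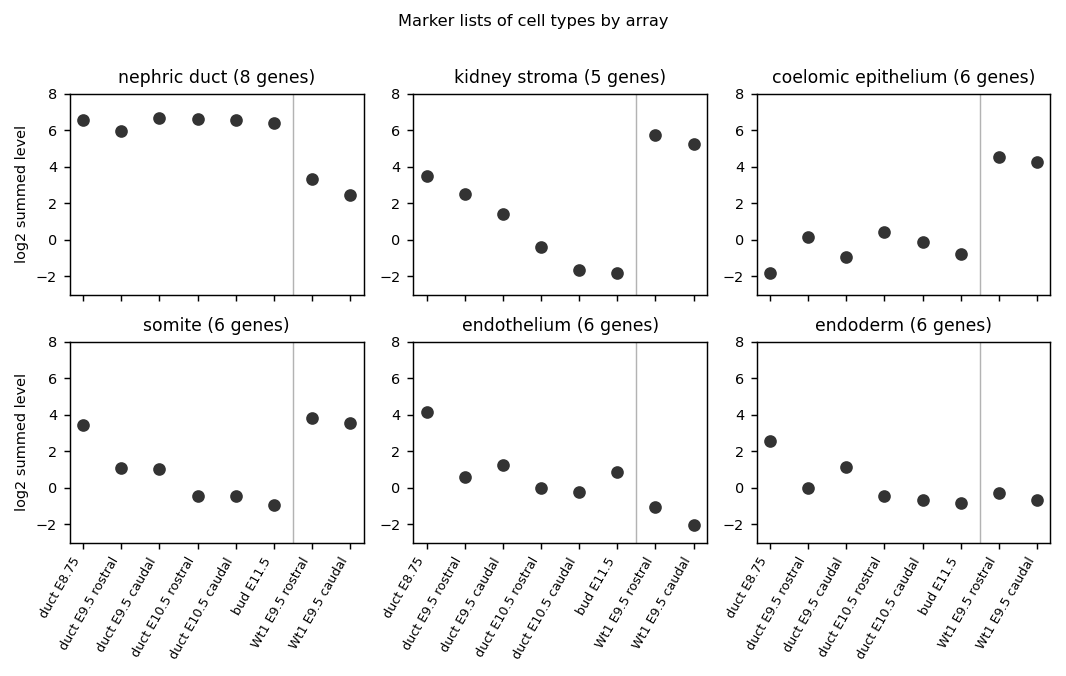
Log2 summed level (vertical axis, relative to the array's 75th percentile) of 6 marker lists on the 8 arrays (horizontal axis), with a line between the duct and the Wt1-GFP arrays. Duct markers lie at 5.97 to 6.68 on the duct arrays, kidney stroma markers run from 3.47 at E8.75 to -1.81 in the bud, and endothelial markers lie highest, at 4.17, at E8.75. The stroma sum at E8.75 rests mainly on Meox1, at 3.32, which is also in the somite list. Pdgfra, Col3a1 and Tcf21 were lower at E8.75 than in the rostral E9.5 duct.

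The next comparisons followed the duct from E8.75 to the E11.5 bud. The ligands Bmp2, Bmp4 and Tgfb2 and the antagonist Grem1 had their highest duct levels at E8.75 or E9.5. In the caudal E10.5 duct and the bud, Bmp2, Tgfb2 and Grem1 were not above background, and Bmp4, above it on every array, had its lowest duct levels, -0.13 and -2.24. Bmpr1b had its lowest level at E8.75 and its highest in the bud by its brighter probe. Its dimmer probe was also lowest in the duct at E8.75, at -4.94, but highest in the caudal E9.5 duct, at -0.84, with -1.52 in both parts at E10.5 and -0.89 in the bud. No gene passed an adjusted p of 0.05 in limma at any of the 3 steps (0% each). The lowest adjusted p among members was 0.23 at the step from E8.75 to E9.5, 0.50 at the step to E10.5 and 0.29 at the step to E11.5. An unadjusted p under 0.05 was found for 10 of 34 members at the first step (16% of all genes), 4 at the second (7.48% of all genes) and 8 at the last (12.6% of all genes). A difference of at least 2-fold was fitted for 17 members (23.5% of all genes), 7 members (12.7%) and 12 members (21.5%) in the same order.

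**Figure D4:**
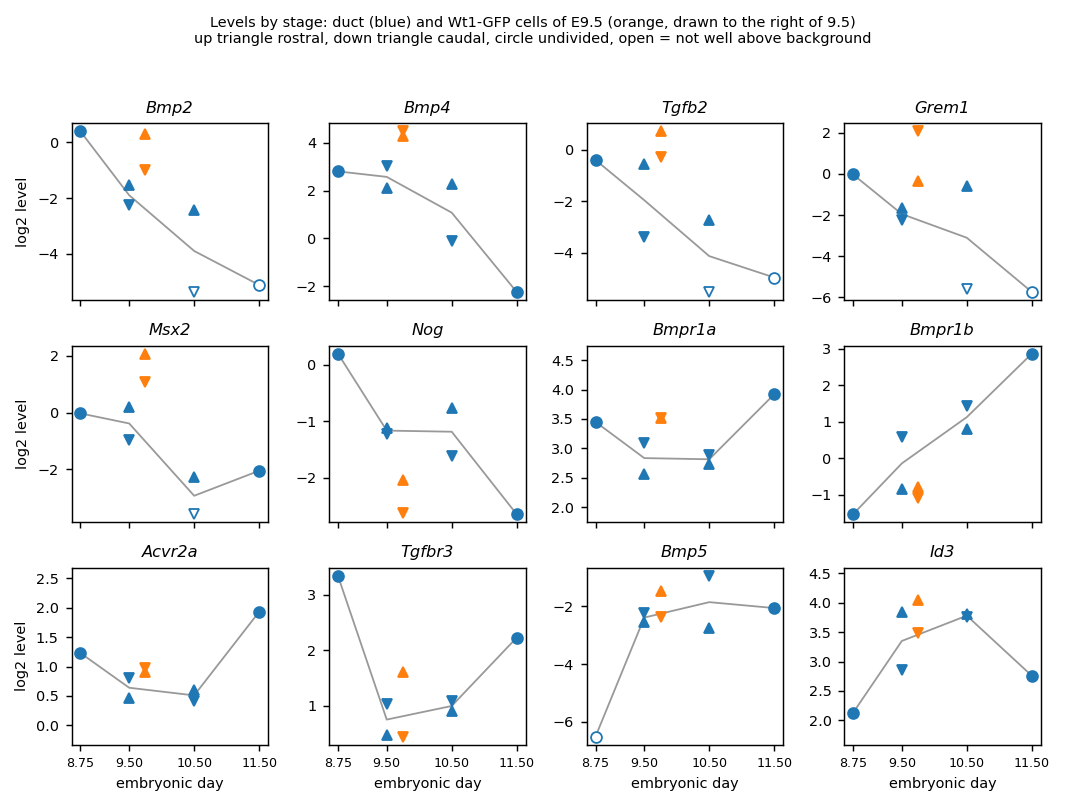
Log2 levels (vertical axes, each with its own range) of 12 members by embryonic day (horizontal axis) in the duct (blue) and in the Wt1-GFP cells of E9.5 (orange); triangles point up for rostral and down for caudal arrays, open symbols were not well above background, and the grey line joins the stage means. Bmp2, Bmp4, Tgfb2 and Grem1 end lowest in the bud or the caudal E10.5 duct, and the brighter probe of Bmpr1b goes from -1.53 at E8.75 to 2.86 in the bud.

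From E8.75 to E9.5, the ligands again went both ways. Bmp5, which encodes a BMP of the same subgroup as Bmp7, was at -6.51 and not above background at E8.75 and stood at -2.55 and -2.23 at E9.5, so it was at least 7.28-fold higher at E9.5 (limma adjusted p = 0.24, unadjusted p = 0.012). Gdf11, a growth factor whose loss in mice impairs formation of the ureteric bud, stood at -0.87 and then at 1.04 and 0.66 (difference 1.72 ± 0.40 SE; limma adjusted p = 0.25). Inhbb, which encodes the beta B subunit of activin and inhibin, stood at -1.67 and then at -0.44 and -0.89. For these 3 genes both E9.5 arrays were above the E8.75 array. Tgfb1 went the other way, from -1.45 at E8.75 to levels not above background at E9.5, at least 10.1-fold lower (limma adjusted p = 0.23). Bmp2 stood at 0.39 and then at -1.54 and -2.26 (difference -2.29 ± 0.77 SE; limma adjusted p = 0.31), and Bmp6 and Tgfb2 had differences of -1.04 and -1.56. Gdf6 and Inha, not above background at E8.75, were above it on 1 and 0 of the 2 arrays of E9.5.

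Of the receptors, Tgfbr3 (betaglycan, a co-receptor for TGF-beta2 and inhibin) stood at 3.34 at E8.75 and at 0.48 and 1.03 at E9.5 (difference -2.58 ± 0.63 SE; limma adjusted p = 0.26), and Tgfbr2 stood at 1.38 and then at -1.98 and -0.08. Bmpr1b stood at -1.53 and then at -0.85 and 0.57 (difference 1.39 ± 0.60 SE). Nog stood at 0.20 and then at -1.11 and -1.22 (difference -1.36 ± 0.34 SE; limma adjusted p = 0.26), and Grem1 at -0.03 and then at -1.65 and -2.25. Tgfbr3, Tgfbr2, Nog and Grem1 each had their highest duct level at E8.75.

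Among the targets, Msx1 stood at 0.66 at E8.75 and at -1.69 and -1.36 at E9.5 (difference -2.19 ± 0.43 SE; limma adjusted p = 0.24), and its E8.75 level was above that of every other array. Id3 stood at 2.13 and then at 3.85 and 2.85 (difference 1.21 ± 0.39 SE), and Tgfbi, not above background at E8.75, was at least 5.90-fold higher at E9.5. The 6 endothelial markers were above background on all 3 arrays of this step and summed to 4.17 at E8.75 and to 0.60 and 1.22 at E9.5 on the log2 scale. The 6 endoderm markers summed to 2.56 and then to 0.00 and 1.16, and the somite markers to 3.42 and then to 1.11 and 1.03. Meox1, on which the somite sum mainly rested, stood at 3.32 and then at -0.02 and 0.40. The part of these cells in the E8.75 levels of Tgfb1, Tgfbr2, Tgfbr3, Msx1 and the other members was not tested. Without the rostral E9.5 array, 4 members had an unadjusted p under 0.05 at this step, where all arrays gave 10.

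From E9.5 to E10.5, Msx2, Tgfb2, Bmp2 and Smad7 had an unadjusted p under 0.05. Msx2 stood at 0.19 and -0.96 at E9.5 and at -2.28 and -3.58 at E10.5, the last not above background (difference -2.54 ± 0.21 SE; limma adjusted p = 0.50, unadjusted p = 0.00044). Tgfb2 stood at -2.74 in the rostral E10.5 duct and at -5.52, not above background, in the caudal part (difference -2.17 ± 0.58 SE; limma adjusted p = 0.62). Bmp2 had the same order, at -2.43 in the rostral part and at -5.37, not above background, in the caudal part (difference -2.0 ± 0.63 SE; limma adjusted p = 0.65). Smad7, the inhibitory Smad of both pathways, stood at -1.08 and -0.84 at E9.5 and at -0.04 and -0.28 at E10.5 (difference 0.80 ± 0.24 SE; limma adjusted p = 0.65). Bmpr1b, at 0.81 and 1.44 at E10.5, was above both E9.5 arrays (difference 1.27 ± 0.49 SE; limma adjusted p = 0.69), and Gdf6 was not above background in either part.

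Bmp4 and Grem1 had differences of -1.49 ± 0.93 (SE) and -1.15 ± 1.95 (SE) at this step, both carried by the caudal part. Bmp4 stood at 2.28 in the rostral and -0.13 in the caudal E10.5 duct, and Grem1 at -0.60 and at -5.60, the latter not above background. For both, the rostral E10.5 level was within the range of the E9.5 levels or above it. Without the caudal E10.5 array the step was -0.02 for Bmp4 and 1.80 for Grem1, and 1 member, not 4, had an unadjusted p under 0.05. The kidney stroma markers summed to -0.39 in the rostral and -1.67 in the caudal E10.5 duct, with Foxd1 not above background in either part and Pdgfra and Meox1 not in the caudal part, against 2.52 and 1.42 at E9.5. Their part in the levels of Msx2, Bmp2, Bmp4, Tgfb2 and Grem1 was not tested.

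Between the E10.5 duct and the E11.5 bud, 3 of the 9 receptors had an unadjusted p under 0.05, all higher in the bud (7.1% of all genes in that direction). The median difference of these 9 receptors was 0.98, and 4 were past 2-fold upward (10.8% of all genes). Another 9 receptors and co-receptors, tested among the further pathway genes described below, had a median of -0.81 at this step. Of those, 0 were past 2-fold upward and 3 downward (Rgma, Eng and Acvr1b). Rgma, lower in the bud, was the only 1 of them with an unadjusted p under 0.05. Bmpr1b stood at 0.81 and 1.44 at E10.5 and at 2.86 in the bud (difference 1.73 ± 0.60 SE; limma adjusted p = 0.39). Bmpr1a, the other BMP type I receptor, stood at 2.74 and 2.89 and then at 3.92 (difference 1.11 ± 0.30 SE; limma adjusted p = 0.36). For both, the bud was the highest of the 8 arrays. Acvr2a, a type II receptor for activins and BMPs, stood at 0.60 and 0.42 and then at 1.93 (difference 1.42 ± 0.29 SE; limma adjusted p = 0.31). A dimmer probe for Acvr2a gave the opposite order, at -1.87 and -2.0 at E10.5 and -3.14 in the bud. Tgfbr3 stood at 0.91 and 1.09 and then at 2.23. Smad6, the inhibitory Smad of the BMP branch, stood at -4.50 and -5.43, the latter not above background, and then at -2.79 (difference 2.18 ± 0.54 SE; limma adjusted p = 0.34).

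Most fitted ligand and antagonist differences at this step had the opposite sign to the median of the 9 member receptors. Lower in the bud were 10 of the 12 tested ligands and 4 of the 4 secreted antagonists, while 48.4% of all genes were higher. Of these ligands, Bmp2, Gdf6, Inha, Tgfb1 and Tgfb2 were not above background in the bud. Bmp4 stood at 2.28 and -0.13 at E10.5 and at -2.24 in the bud (difference -3.31 ± 1.14 SE; limma adjusted p = 0.39), its lowest level on any array. A second and dimmer Bmp4 probe, above background on 5 of the 8 arrays, stood at -4.20 and -5.95 and then at -5.26. Nog stood at -0.76 and -1.61 and then at -2.65 (difference -1.47 ± 0.34 SE; limma adjusted p = 0.33). Fst was above background in the rostral E10.5 duct, not in the caudal duct or the bud, and was at least 1.42-fold lower in the bud. Bmp2 and Grem1 were above background in the rostral E10.5 duct and not in the caudal duct or the bud, and were at least 1.80-fold and 3.14-fold lower in the bud, bounds that rest on the rostral array. Without that array Grem1 had a difference of 0.33, and 5 members, not 8, had an unadjusted p under 0.05. With the mean of all probes of a gene the count was also 5. Id3 stood at 3.80 and 3.76 and then at 2.76, and Tgfbi at -1.73 and -4.05 and then at -4.13. Msx2 stood at -2.05 in the bud (difference 0.88 ± 0.26 SE; limma adjusted p = 0.37). The kidney stroma markers summed to -0.39 and -1.67 at E10.5 and to -1.81 in the bud, where Foxd1, Pdgfra and Col3a1 were not above background. The endothelial markers summed to 0.01 and -0.24 and then to 0.88. That sum in the bud rested mainly on Icam2, at -2.39 and -2.92 and then at 0.02. Cdh5 and Emcn were also higher in the bud than in both E10.5 parts, while Pecam1, Tek and Tie1 were lower. The part of these cell types in the levels of this step was not tested.

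The last comparison set rostral against caudal parts in the 3 pairs of arrays. The members leaned to the rostral side: 26 of 34 had a positive fitted difference, against 50.2% of all genes, and their median was 0.31 against 0.00 on the log2 scale. All 6 members with an unadjusted p under 0.05 were higher in the rostral part, Bmp2, Inha, Tgfb2, Id2, Msx2 and Tgfbi (6.8% of all genes either way, 3.81% in the rostral direction), and the same number was past 2-fold rostrally (5.24% of all genes) and 0 caudally (2.82%). No gene passed an adjusted p of 0.05 in limma (0%), and the lowest adjusted p among members was 0.71. By a rule added after the values were seen, 9 members were higher in the rostral array of all 3 pairs (15.2% of all genes) and 0 were lower in all 3 (16.1% of all genes). These 9 were Bmp2, Inha, Inhbb, Tgfb2, Nog, Id2, Id3, Msx2 and Tgfbi.

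**Figure D5:**
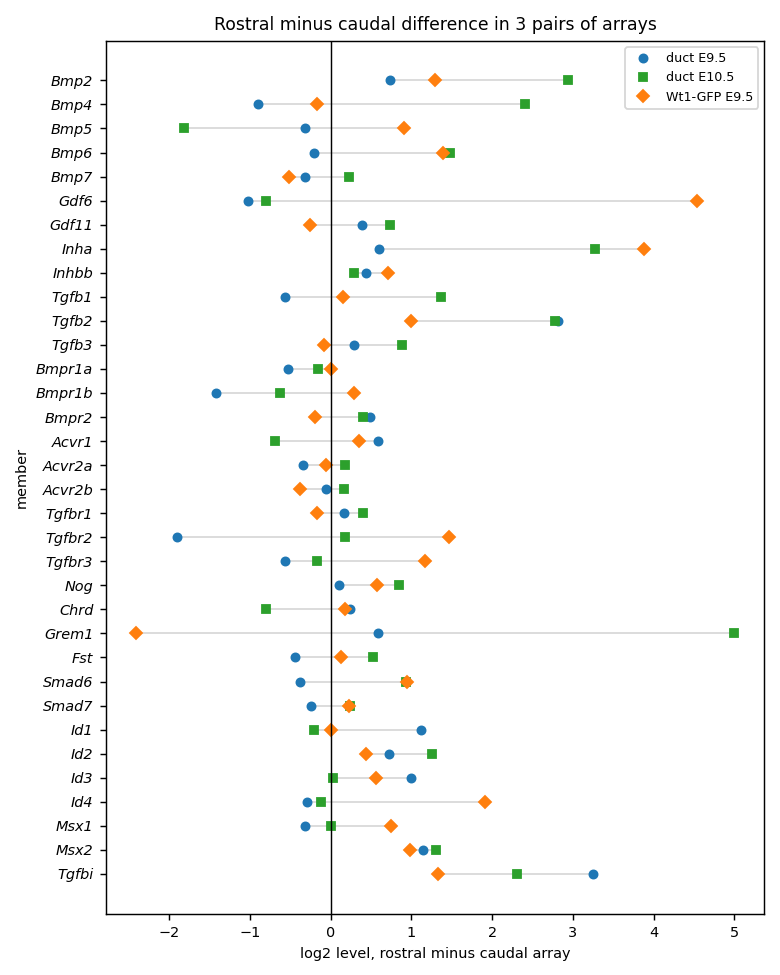
Rostral minus caudal log2 level (horizontal axis) of the 34 tested members (rows, by role) in the E9.5 duct (blue circles), the E10.5 duct (green squares) and the Wt1-GFP cells (orange diamonds), with a grey line over the range of the 3 pairs. Tgfb2, Msx2, Tgfbi and Id2 lie to the right of 0 in every pair, and Grem1 reaches from -2.41 to 5.0, the latter against a caudal array not above background.

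Tgfbi differed by 3.25 in the E9.5 duct, 2.31 in the E10.5 duct and 1.33 in the Wt1-GFP cells (fitted 2.30 ± 0.44 SE; unadjusted p = 0.0079, limma adjusted p = 0.71). Tgfb2 differed by 2.81, 2.78 and 0.99 in the same order (fitted 2.19 ± 0.47 SE), and Msx2 by 1.15, 1.30 and 0.98 (fitted 1.14 ± 0.17 SE; unadjusted p = 0.0036). The 3 differences of Msx2 were the closest to each other of the 6 members. Id2 differed by 0.72, 1.25 and 0.44 (fitted 0.80 ± 0.24 SE). Bmp2 differed by 0.73, 2.94 and 1.29 (fitted 1.65 ± 0.51 SE) and Inha by 0.60, 3.27 and 3.88. The caudal E10.5 array was not above background for Bmp2, Tgfb2, Msx2, Tgfbi and Inha, nor were the other caudal arrays and the rostral E9.5 duct for Inha. The receptors had no member past 2-fold in either direction and ran from -0.59 to 0.23. Without either of the E10.5 arrays 3 members, not 6, had an unadjusted p under 0.05. The summed kidney stroma markers were also higher in the rostral part of each pair, at 2.52 against 1.42, -0.39 against -1.67 and 5.72 against 5.24. Pdgfra and Col3a1 were so in every pair, but Foxd1 was lower rostrally in both duct pairs, Meox1 in the E9.5 duct and Tcf21 in the Wt1-GFP cells. The coelomic epithelium sum was 0.17 against -0.97, 0.41 against -0.13 and 4.54 against 4.25. In the duct pairs it followed Wt1, at -0.15 against -1.86 and -0.93 against -5.07, the last not above background. Krt19 was slightly lower rostrally in both duct pairs, and Upk3b was lower rostrally at E10.5. The part of these cell types in the rostral levels was not tested.

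The pairs of Grem1, Bmp4 and Gdf6 did not share a sign. Grem1 was higher in the rostral part by 0.59 in the E9.5 duct and by 5.0 in the E10.5 duct, and lower by 2.41 in the Wt1-GFP cells, where the caudal array held its highest level, 2.06. The caudal E10.5 array of Grem1 was not above background, and with it raised to the dimmest level above background the E10.5 difference was 3.29. Bmp4 differed by -0.90, 2.41 and -0.17, and Gdf6 by -1.02, -0.80 and 4.54. The fitted position difference of Grem1, 1.06 ± 1.59 (SE), was -0.91 without either E10.5 array. A test of whether position differed by reporter left 1 residual degree of freedom, and gave an unadjusted p under 0.05 for Gdf6, Id4 and Tgfb2, 3 of 34 members against 5.87% of all genes (lowest limma adjusted p 0.81, 0% of genes passing). Past 2-fold were 10 members (23.4% of all genes), with Bmp5, Bmpr1b, Inha, Tgfbr2 and Tgfbr3 at 1.32 to 2.33, Grem1 at -5.21 and Tgfbi at -1.45 beside these 3, and Tgfbi was at 0.04 with normexp background correction. Id4 was higher in the rostral Wt1-GFP cells by 1.91 and differed by -0.29 and -0.12 in the duct. A test of the E10.5 pair against the pairs of E9.5, added after the values were seen, gave an unadjusted p under 0.05 for Bmp2, Bmp4 and Grem1, all with the larger rostral excess at E10.5 (6.47% of all genes either way, 2.1% in that direction). In the E10.5 pair alone the rostral array lay in the first row of the slide and the caudal array in the second. Slide row therefore cannot be told apart from stage in this test. The interaction was 2.95 ± 0.55 (SE) for Bmp4, 5.91 ± 1.62 (SE) for Grem1 and 1.93 ± 0.50 (SE) for Bmp2, with limma adjusted p of 0.73, 0.77 and 0.76. With dim values raised in the same way, an alternative added after the values were seen, it was 2.95 for Bmp4 (unadjusted p = 0.0074), 4.19 for Grem1 (0.057) and 0.45 for Bmp2 (0.40), since the caudal E10.5 arrays of Grem1 and Bmp2 were not above background; Bmp4 was above it on all arrays.

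A further 75 genes of the 2 pathways, listed by function, were read in the same fit, and 68 of them were tested. At E9.5, 4 were higher in the duct and 9 lower at an unadjusted p under 0.05, against 6.37% and 7.22% of all genes, and none passed the adjusted threshold in limma. Sostdc1, a secreted antagonist of BMP and Wnt ligands, stood at 0.89 and 1.12 in the duct and at -3.61 and -6.31 in the Wt1-GFP cells, the latter not above background (difference 5.97 ± 0.79 SE; limma adjusted p = 0.21). It was also between 1.54 and 2.88 in the E10.5 duct and the bud. Bmper, which binds BMPs outside the cell, was above background in both Wt1-GFP arrays, at 0.82 and -2.84, and on no duct array, and was at least 10.8-fold lower in the E9.5 duct. Col1a1, a collagen induced by TGF-beta, had a difference of -3.02 ± 0.55 (SE), and Rgmb, a BMP co-receptor, one of 1.90 ± 0.49 (SE). Of the BMP Smads, Smad1 and Smad5 were above background on all 8 arrays, at 2.09 to 4.02 and 2.84 to 3.81. Smad9 was above background on 1 array, the rostral Wt1-GFP cells, at -2.50, and stood at -4.57 in the caudal Wt1-GFP cells and at -6.49 and -6.80 in the E9.5 duct (difference -3.11 ± 0.79 SE; unadjusted p = 0.020, limma adjusted p = 0.32). In the rostral against caudal comparison 7 of the 68 were higher rostrally and 0 caudally at an unadjusted p under 0.05, against 3.81% and 2.99% of all genes, and Bmper (2.41 ± 0.59 SE), Col1a1 (2.07 ± 0.45 SE) and Fstl3 (1.05 ± 0.24 SE), a follistatin relative, were among the 7.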

How the data were processed

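Gene expression was measured on 8 arrays, 1 per sorted sample. The amplification of 10 ng of RNA used the WT-Ovation Pico system of NuGEN, and the Cy3 label came from an enzymatic kit, per the labels' protocols. Each intensity is, per the file headers, a 1-colour processed signal from version 10.7.3.1 of Agilent Feature Extraction. The deposited matrix holds log2 values, which followed the level used here centred on each probe's median (r = 1 to 4 digits), and served as an alternative. All arrays lay on 1 slide with 1 scan time.

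Outlier spots were left out, repeated spots averaged, and 55663 of 55681 probes kept. Each processed signal was divided by the 75th percentile of its array and taken to log2 to give the level. The brightest probe stood for a gene (48 probes for 37 members, 8 of them with more than 1), and genes well above background on at least 1 array were tested in R 4.3.3 (limma 3.58.1, and version 1.17.8 of data.table to read the files). A group of 1 array is taken to vary like the rest. A bound uses, for each dim array, the higher of the gene's level and the dimmest level well above background. The fit was tested on simulated data. Members and lists were chosen with earlier results of these data known. Named were members with a fitted difference of at least 2-fold, and others where a sentence calls for them. The planned protein comparison was not run, and 1 marker list is not reported here.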

Additional observations from a re-analysis of the deposited data

How the results depend on the processing

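Most values of the named members kept their direction and their side of the adjusted threshold under the alternatives run, which were quantile normalization, normexp background correction, the deposited matrix, dim values raised to the dimmest level above background, no filter, a filter on all 8 arrays, an intensity trend, no position term, the slide row as a block, the mean of all probes and leaving out each array. The cause of the exceptions was not tested.

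Genes past the adjusted threshold in the reporter comparison numbered 183 with normexp, 692 with the trend and 8 without the position term, where the reported setting gave 0, and at the step from E8.75 to E9.5 99, 471 and 28. The trend also gave 1 gene for position by reporter. Members with an unadjusted p under 0.05 at the step from E9.5 to E10.5 numbered 2 with the filter on all 8 arrays, 2 without the position term and 1 with the slide row. At the step from E10.5 to E11.5 they numbered 5 with the slide row and 5 with the mean of all probes. In the rostral against caudal comparison they numbered 2 with the filter on all 8 arrays and 3 with the slide row, and for position by reporter 5 with normexp and 6 with the trend. Leaving out 1 array gave 6 to 12 members in the reporter comparison, 4 to 11 at the first step, 1 to 5 at the second, 5 to 8 at the last and 3 to 6 for position.

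Signs turned for these values: Inha in the reporter comparison, 0.15 without the rostral E9.5 duct (range -2.83 to 0.15 over the arrays left out); Tgfbr2, -0.30 and -0.10 without the caudal duct or the caudal Wt1-GFP array (range -0.30 to 2.43); Grem1 with the slide row, 1.80, 0.33 and -0.91 at the steps to E10.5 and E11.5 and for position, the values also found without an E10.5 array (ranges -4.10 to 1.80, -5.58 to 0.33 and -0.91 to 2.80); and Tgfbi for position by reporter, 0.04 with normexp. The fit pairs the rostral and caudal arrays of a group through its position term, and no further block was fitted, as the labels carry no replicate numbers. Position by reporter could not be fitted with the slide row or without an array of a pair. Levels not well above background limit Tgfb1, Gdf6 and Inha on 6 of the 8 arrays each and Fst on 4.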
